A study of Mus musculus with 173 samples.

Results

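The genes described here are 32 markers of the cells that build blood vessels, chosen by name as endothelial, pericyte and smooth muscle genes and matched by symbol to the gene table, in which they are 32 of 38561 genes. Of these, 20 are endothelial genes, 4 are contractile genes of smooth muscle and 8 are pericyte and mural cell genes. Endothelial cells line every vessel and are held together by junction proteins such as Cdh5 (VE-cadherin) and Cldn5 (claudin-5), and they take growth signals through Vegf receptors (Kdr, Flt1) and the angiopoietin receptor Tek. Mural cells wrap around this lining: pericytes sit on capillaries and need the receptor Pdgfrb, and smooth muscle cells ring arteries and veins and contract with smooth muscle actin and myosin (Acta2, Myh11). In the brain the lining forms the blood-brain barrier, which is closed to most solutes, whereas capillaries of other organs carry other transporters and, in some beds, pores spanned by Plvap.

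Polyadenylated RNA was measured in 11 tissues of C57BL/6 mice at 6 months of age. The Q175 mice were heterozygous for a huntingtin (Htt) knock-in allele of the Huntington's disease allelic series with a label of 175 CAG codons, and the wild-type mice did not carry it. Each genotype had 4 females and 4 males, so a tissue has 8 Q175 and 8 wild-type libraries, apart from gonadal adipose with 7 wild-type libraries and skin with 6, and each library held 28 to 48 M (mega) estimated counts. The expanded run lies in the mouse's own Htt gene, so vessel cells carry it as all other cells do. The design text calls the wild-type mice littermates, but in the library names all wild-type animal codes begin with Q20 and all Q175 codes with Q175. Cage mates of Q175 mice were Q175 mice, and those of wild-type mice belonged to the Q20 line. Genotype, line of origin and housing therefore cannot be told apart in any comparison of the genotypes. Levels between genes and tissues are given as FPKM (fragments scaled to transcript length and library total). Levels within a tissue are given as CPM (counts scaled to the TMM-adjusted library total), and differences as log2 fold changes (Q175 over wild type, ± standard error, SE). A gene was called when its Benjamini-Hochberg adjusted p from edgeR's quasi-likelihood test, with sex as a term, was under 0.05.

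Htt itself ran from 19.9 to 23.3 FPKM (median 22.2) in Q175 cerebellum, against 21.1 to 26.3 FPKM (median 25.8) in wild-type cerebellum. Abhd1, a gene outside the vessel lists, had a Q175 median above the highest wild-type library in each of the 11 tissues. It ran from 2.02 to 6.14 FPKM (median 5.76) in Q175 cerebellum, against 1.69 to 2.55 FPKM (median 2.1) in wild-type cerebellum. A single Q175 male lay within the wild-type range of Abhd1 in 10 of 11 tissues, which held for 1 of the other 77 Q175 libraries. That other library was skin Q175 female 4. In heart every Q175 library, this male included, lay below wild type in Htt, at 1.78 to 2.17 against 2.44 to 2.77 FPKM. The same held in hippocampus, at 6.23 to 17.5 against 17.8 to 21 FPKM. By Abhd1 alone the genotype labels of this male and of skin Q175 female 4 are in doubt. The Q175 values below include both as labelled. The male is called the Q175 male with low Abhd1 here, and counts without it are given beside the results they touch. The vessel markers were found in every tissue: all 32 genes passed the filter on low counts in all 11 tissues, and the lowest value of any of them in any library was 4 estimated counts, for Cnn1 in a Q175 corpus callosum library. Summed striated muscle markers reached 90200 to 125000 CPM in wild-type gastrocnemius and 15000 to 16600 CPM in wild-type heart, while they stayed at 1.87 to 2.74 CPM in wild-type cerebellum. Brown adipose was uneven, with 18.9 to 13500 CPM of these muscle markers over its 8 wild-type libraries.

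In wild-type mice the vessel genes were highest in white fat and lowest in brain. Of the 32 genes, 14 had their highest mean FPKM in gonadal adipose, 12 in intestinal adipose, 4 in heart, 1 in skin (Notch3, a receptor of mural cells) and 1 in cerebellum (Vtn, vitronectin). The lowest mean fell in hippocampus for 18 genes and in skin for 6. The adhesion molecule Pecam1 (CD31) led in intestinal adipose at 93.1 ± 12.1 FPKM, followed by gonadal adipose at 55 ± 12 and heart at 34.5 ± 1.79 (SD, n = 8, 7 and 8). It was lowest in hippocampus at 5.54 ± 0.437 FPKM (n = 8), 16.8 times below intestinal adipose. Neighbouring tissues in this order overlapped in their ranges, apart from the steps between gonadal adipose and heart for Pecam1 and, for Cdh5, between heart (32 ± 3.48 FPKM) and gastrocnemius (16.5 ± 2.71) and between gastrocnemius and skin (4.7 ± 1.95, n = 6). Most other endothelial genes followed the order of Pecam1 over the 11 wild-type tissue means. Pearson's r of log2 FPKM with Pecam1 was 0.97 for Tek, 0.96 for Cdh5, Emcn and Eng, and 0.95 for Kdr, Tie1 and Egfl7. These values are a description over 11 tissues that come from the same animals and differ together in many genes.

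**Figure D1:**
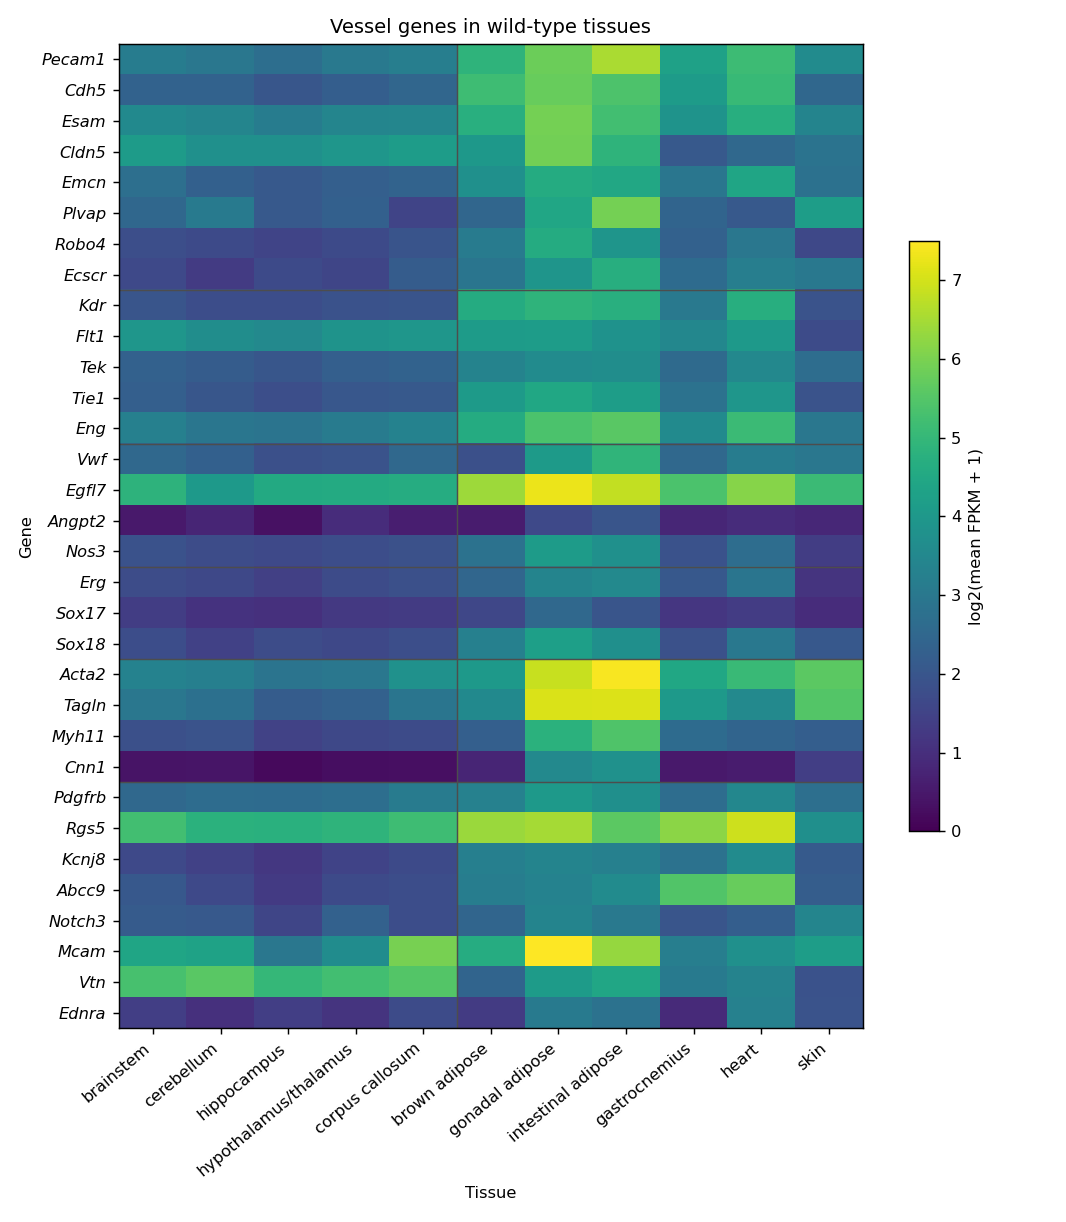
Mean level of each of the 32 vessel genes (rows, grouped by role) in the 11 wild-type tissues (columns, brain regions left of the vertical line), coloured by log2(mean FPKM + 1). The brightest columns are gonadal and intestinal adipose, while Flt1 stays at similar shades in brain and fat, and Vtn is brighter in the 5 brain regions than in the other tissues.

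A few genes departed from this order. Flt1, a Vegf receptor that binds its ligand with high affinity and signals weakly, held 10.6 ± 0.508 FPKM in hippocampus (n = 8) and 16.7 ± 3.21 FPKM in gonadal adipose (n = 7), and its r with Pecam1 was 0.24. The tight junction protein Cldn5 was highest in gonadal adipose at 58.3 ± 24.2 FPKM (n = 7) and intestinal adipose at 28.6 ± 5.97 FPKM (n = 8). In brain it was at 16.6 ± 2.25 FPKM in corpus callosum and 12.7 ± 2.35 FPKM in hippocampus (n = 8 each), with means above heart with 4.83 ± 2.23 and gastrocnemius with 3.26 ± 0.858 FPKM (n = 8 each). Its r with Pecam1 was 0.3. Vtn, an adhesive glycoprotein made by brain pericytes, ran against the rest with an r of -0.4, at 46.4 ± 2.7 FPKM in cerebellum and 2.71 ± 0.706 FPKM in skin. Rgs5, a G-protein regulator of pericytes, and Abcc9, which with Kcnj8 forms the pericyte potassium channel, were highest in heart at 121 ± 3.94 and 53.3 ± 5.27 FPKM. Abcc9 and Kcnj8 are also known from heart and skeletal muscle fibres, and Abcc9 was at 43.1 ± 4.41 FPKM in gastrocnemius. Cnn1 (calponin) and Tagln, both contractile genes, spanned the widest ranges of tissue means, with the highest mean 95.5 and 39.1 times the lowest, followed by Abcc9 with 37 times and Plvap with 31.2 times. Acta2 was at 170 ± 88.1 FPKM in intestinal adipose and 6.43 ± 0.802 in hippocampus. Mcam (CD146), found on mural and endothelial cells, was at 181 ± 55.3 FPKM in gonadal adipose (n = 7) and at 61 ± 15.5 in corpus callosum, but at 6.9 ± 1.05 in hippocampus (n = 8 each).

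The contrasts between wild-type tissues were tested with limma voom over all libraries, with a call at an adjusted p under 0.05 and a log2 difference of at least 1. Between the 5 brain regions and the 6 peripheral tissues, 30 of 32 genes were called, 29 of them lower in brain, against 55.7% of all genes tested (28.7% lower and 27% higher). Cnn1 stood at -3.51, Tagln at -3.32, Abcc9 at -3.24, Cdh5 at -3.21 and Pecam1 at -2.78 ± 0.0496 (SE), with an adjusted p of 1.48e-102 for Pecam1. Vtn alone was higher in brain, by 1.69 ± 0.0742, and Flt1 (-0.28) and Cldn5 (-0.24) stayed under the limit of 1. Among 12 markers of blood-brain barrier endothelium, 7 were higher in brain and 0 lower. The smallest p values among them were those of the transporters Slco1c1 (8.22), Slc2a1, which carries glucose (2.30), and Slc7a5 (3.24), and of the junction protein Ocln (3.66), and the lipid transporter Mfsd2a stood at 4.64. Of 10 markers of peripheral capillaries, 9 were lower in brain. Brown adipose was lower than gonadal adipose for 11 genes (all genes 25.9%, lower 14.3%), of which 7 are mural or contractile genes and 4 endothelial (Plvap, Angpt2, Vwf and Cldn5). The most negative were Tagln (-2.62), Cnn1 (-2.59), Mcam (-2.21) and Acta2 (-2.06), whereas Pecam1 (-0.2) and Cdh5 (0.11) were not called. Heart was above gastrocnemius for 6 genes (all genes 28.6%, higher 15.6%), namely the endothelin receptor Ednra (3.20), Kdr (1.64), Eng (1.42), Emcn (1.41), Sox18 (1.26) and Tie1 (1.03). In corpus callosum Mcam was higher than in hippocampus by 3.11 ± 0.202 (adjusted p = 2.18e-31), and Angpt2 by 1.01 (all genes 21%, higher 11.7%), while Pecam1 differed by 0.54.

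Between Q175 and wild-type mice, calls among the vessel genes were found in 4 tissues. In cerebellum 13 of 32 genes (40.6%) were called, against 16.1% of all genes tested there, and in skin 16 (50%), against 6.53%. All of these were lower in Q175, where 8.11% of all genes were called lower in cerebellum and 4.03% in skin. In gonadal adipose 14 (43.8%) were called, 11 higher and 3 lower, against 32.1% of all genes tested (15.4% higher and 16.7% lower), and in hypothalamus/thalamus Mcam alone was called, 1 of 32 and lower, against 0.574% of all genes (0.466% lower). Pecam1, Cdh5, Flt1 and Plvap were called in cerebellum, skin and gonadal adipose, lower in cerebellum and skin and higher in gonadal adipose. Ecscr, Kdr, Tie1, Erg, Sox17 and Kcnj8 were called in no tissue. In tissue RNA, fewer vessel cells and less of a transcript in each cell cannot be told apart.

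**Figure D2:**
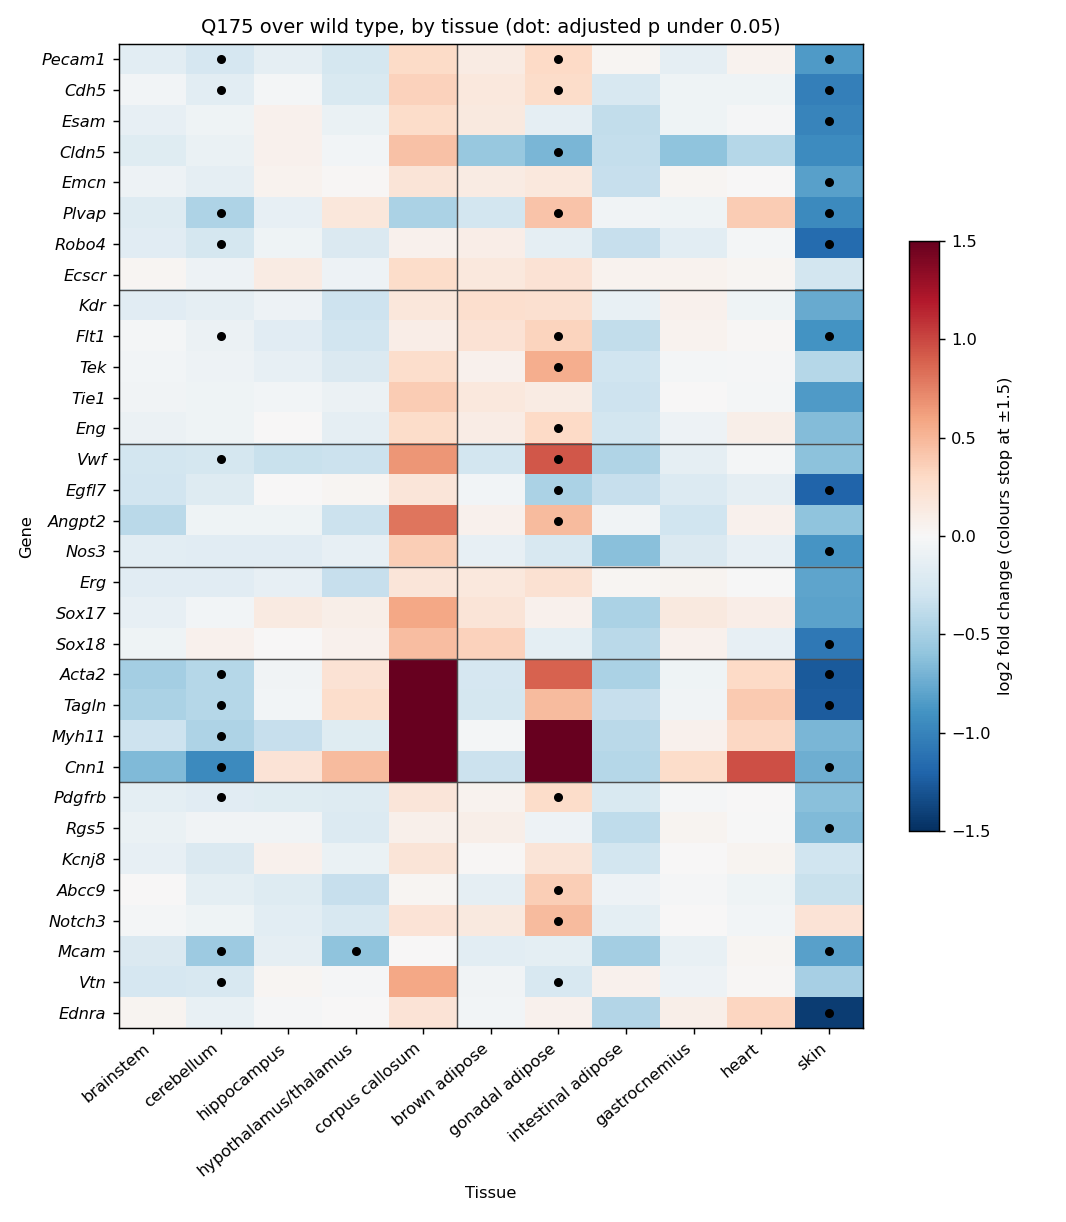
Log2 fold change of Q175 over wild type for each of the 32 genes (rows, by role) in each of the 11 tissues (columns), with called gene and tissue pairs marked. Cerebellum and skin hold 13 and 16 marked genes, all lower in Q175, and gonadal adipose 14, of which 11 are higher.

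Promoters are shown for called members that stand for each role: the endothelial genes Egfl7 and Robo4, the mural genes Ednra and Mcam, and the contractile gene Acta2. They are the RefSeq windows of 250 bases before to 50 after the annotated start on GRCm38.p6, in lower case, with the letters of the site bound by ETS family factors (CAGGAAG, or CTTCCTG on the other strand) in capitals. Egfl7 lies at chr2:26580833-26581132 on the plus strand, Robo4 at chr9:37401722-37402021 on the plus strand, Ednra at chr8:77724403-77724702 on the minus strand, Mcam at chr9:44134408-44134707 on the plus strand and Acta2 at chr19:34255324-34255623 on the minus strand.
Egfl7: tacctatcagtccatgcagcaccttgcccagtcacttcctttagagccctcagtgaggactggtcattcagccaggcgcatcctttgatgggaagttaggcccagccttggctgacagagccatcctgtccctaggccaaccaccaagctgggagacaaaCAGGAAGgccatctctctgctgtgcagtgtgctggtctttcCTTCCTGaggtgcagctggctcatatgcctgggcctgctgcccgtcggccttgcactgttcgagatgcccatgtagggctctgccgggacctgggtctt
Robo4: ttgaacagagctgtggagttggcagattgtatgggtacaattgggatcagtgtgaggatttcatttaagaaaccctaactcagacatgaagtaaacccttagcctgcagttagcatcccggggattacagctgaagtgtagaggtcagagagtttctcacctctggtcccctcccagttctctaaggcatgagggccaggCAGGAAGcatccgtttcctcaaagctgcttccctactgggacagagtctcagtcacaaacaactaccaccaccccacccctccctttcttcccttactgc
Ednra: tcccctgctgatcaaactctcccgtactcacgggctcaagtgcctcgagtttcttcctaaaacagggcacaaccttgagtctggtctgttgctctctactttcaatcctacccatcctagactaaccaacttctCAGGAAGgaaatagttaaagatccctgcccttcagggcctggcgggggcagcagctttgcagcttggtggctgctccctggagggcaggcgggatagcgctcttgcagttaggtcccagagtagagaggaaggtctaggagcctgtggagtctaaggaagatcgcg
Mcam: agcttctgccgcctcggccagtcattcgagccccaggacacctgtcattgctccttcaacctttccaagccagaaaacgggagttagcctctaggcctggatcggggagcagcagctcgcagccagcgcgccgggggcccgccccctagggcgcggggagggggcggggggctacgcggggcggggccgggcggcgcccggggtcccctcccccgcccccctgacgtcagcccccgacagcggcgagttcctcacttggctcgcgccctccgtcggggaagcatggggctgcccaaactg
Acta2: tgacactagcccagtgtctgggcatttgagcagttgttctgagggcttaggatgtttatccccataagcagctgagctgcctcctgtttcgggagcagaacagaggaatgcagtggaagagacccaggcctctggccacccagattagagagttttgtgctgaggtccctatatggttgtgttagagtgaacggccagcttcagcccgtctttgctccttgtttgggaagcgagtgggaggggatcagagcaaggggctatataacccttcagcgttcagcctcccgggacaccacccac
RefSeq windows were matched to 19 of the 32 genes, with 23 windows in all. The ETS letters stood in 6 of these 23 windows (26.1%), of Egfl7 (in 2 windows), Emcn, Ednra, Robo4 and Erg, against 13.3% of all 32851 promoter windows. The CArG box, the motif of serum response factor known from contractile genes, was searched on both strands in its strict form (CC, 6 of A or T, GG). It matched 0 of the 23 windows and 1.63% of all windows. The Acta2 window holds ccctatatgg and ccttgtttgg, each a single letter away from this form. Among the contractile genes, Tagln and Myh11 had no window. The search therefore does not show that contractile genes lack the motif. These are matches of letters in windows of this length.

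In cerebellum the contractile genes were called as a whole group, 4 of 4 lower in Q175. Smooth muscle myosin Myh11 ran from 9.47 to 15.5 CPM (median 13.9) in Q175 libraries, against 13.6 to 20.9 CPM (median 18.7) in wild-type libraries (-0.46 ± 0.104 SE, adjusted p = 0.00511). Acta2 ran from 7.23 to 13.3 CPM (median 11.7) in Q175 and from 11.9 to 18.3 CPM (median 15.1) in wild type (-0.43 ± 0.113, adjusted p = 0.0149). The actin-binding protein Tagln (transgelin) ran from 3.87 to 8.28 CPM (median 7.21) in Q175 and from 7.6 to 11.1 CPM (median 9.52) in wild type (-0.43 ± 0.114, adjusted p = 0.0146). For each of these the genotypes overlapped, and Q175 female 4 was the lowest library. Cnn1 was near its detection limit, with 8 to 28 estimated counts in Q175 and 11 to 42 in wild type (-0.96 ± 0.264, adjusted p = 0.0159). Summed over the 4 genes, Q175 libraries held 20.8 to 37.2 CPM (median 33.6) and wild-type libraries 37 to 49.9 CPM (median 43.5).

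Among the 8 pericyte and mural genes of cerebellum 3 were called, all lower. Mcam ran from 31.8 to 44.1 CPM (median 36.3) in Q175 and from 46 to 57.1 CPM (median 55) in wild type (-0.54 ± 0.0612, adjusted p = 6.7e-06), with no overlap between the genotypes. Vtn ran from 59.8 to 74.9 CPM (median 68.2) in Q175 and from 74.4 to 88.1 CPM (median 80) in wild type (-0.24 ± 0.0317, adjusted p = 2.58e-05). Pdgfrb ran from 23.6 to 28 CPM (median 26) in Q175 and from 25.9 to 31.9 CPM (median 28.8) in wild type (-0.17 ± 0.0462, adjusted p = 0.0168). For Vtn and Pdgfrb the libraries overlapped at the edges of the groups. Rgs5 (-0.05, adjusted p = 0.139) was not called, and Abcc9 lay just outside (-0.15, adjusted p = 0.0769).

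Of the 20 endothelial genes of cerebellum 6 were called, all lower, and 4 of these are junction or surface proteins. Plvap, the diaphragm protein of porous endothelium, ran from 9.21 to 12.2 CPM (median 10.4) in Q175 and from 13.4 to 17.3 CPM (median 14.5) in wild type (-0.46 ± 0.0662, adjusted p = 5.58e-05), again with no overlap. Pecam1 ran from 17 to 22 CPM (median 19.2) in Q175 and from 20.4 to 24.4 CPM (median 22.9) in wild type (-0.25 ± 0.0484, adjusted p = 0.00114). The guidance receptor Robo4 ran from 6.38 to 8.21 CPM (median 6.97) in Q175 and from 7.89 to 9.07 CPM (median 8.47) in wild type (-0.26 ± 0.057, adjusted p = 0.00311). In both genes the highest Q175 library lay within the wild-type range. Cdh5 ran from 13.6 to 16.2 CPM (median 14.9) in Q175 and from 15.4 to 19.2 CPM (median 16.2) in wild type (-0.16 ± 0.0444, adjusted p = 0.0182). The clotting protein Vwf (von Willebrand factor) ran from 18.2 to 28.3 CPM (median 24.2) in Q175 and from 24.1 to 34.5 CPM (median 27.1) in wild type (-0.26 ± 0.0725, adjusted p = 0.0199). Flt1 was called by the least margin (-0.09 ± 0.0303, adjusted p = 0.0494), at 70.8 to 82.1 CPM (median 73.1) in Q175 and 74.9 to 82.7 CPM (median 79.4) in wild type, and the call was lost in 11 of the 16 fits that each left out 1 library. Egfl7 (-0.19, adjusted p = 0.0575) and Cldn5 (-0.1, adjusted p = 0.585) were not called, nor was any of the transcription factors Erg, Sox17 and Sox18. Over all 32 genes, 31 had a log2 fold change below 0, with a median of -0.16, against a median of -0.005 over all genes tested.

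**Figure D3:**
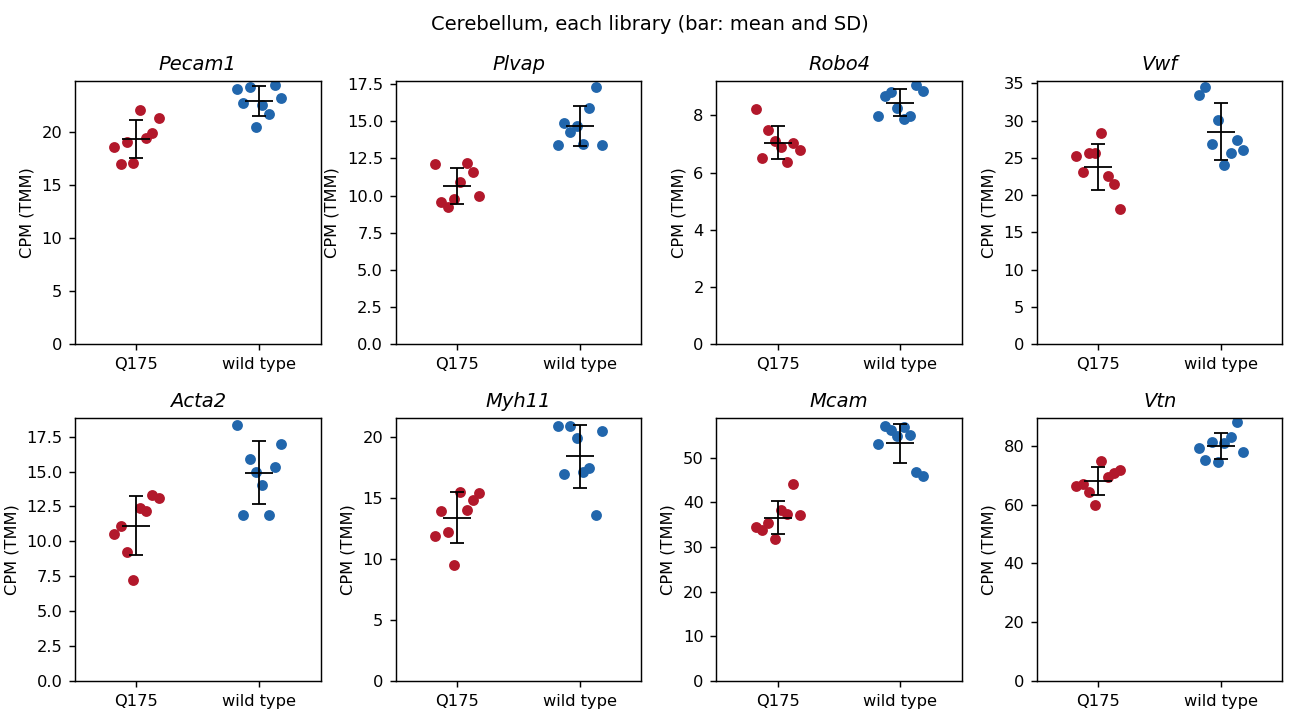
CPM of 8 vessel genes in each cerebellum library (points), Q175 left in red and wild type right in blue, with the mean and SD as bars and axes starting at 0. Mcam and Plvap show no overlap, with Q175 at 31.8 to 44.1 and 9.21 to 12.2 CPM, while the genotypes overlap in the other 6 genes.

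The partners of these genes in cerebellum moved in both directions. Of 30 tested genes of vascular signalling 7 were called, 3 higher and 4 lower. The Tek ligand Angpt1 was higher in Q175 (0.60 ± 0.0381, adjusted p = 1.77e-09), as was the Robo ligand Slit3 (0.32), while the ligand Apln (-0.24) and the Notch target Heyl (-0.43) were lower. Of 4 tested genes of a second smooth muscle list 3 were lower, the filament genes Des (-0.50) and Synm (-0.21) and the contractile regulator Lmod1 (-0.40). Of 12 barrier genes 2 were lower, the lactate carrier Slc16a1 (-0.24) and the efflux pump Abcb1a (-0.12). Peripheral capillary markers had 1 of 7 lower (Car4, -0.21), fibroblast collagens Col1a2 (-0.19) and Col1a1 (-0.24) were 2 of 6 lower, and the platelet gene Itga2b (-0.61) was lower, 1 of 2. The summed fibroblast markers of Q175 libraries lay between 87.5 and 104 CPM, those of wild-type libraries between 97.9 and 119 CPM. Choroid plexus markers varied far more, between 22.5 and 2590 CPM over Q175 libraries and between 28.9 and 2190 CPM over wild-type libraries. The part of these markers in the result was not tested. In females alone 11 of 32 genes were called, Mcam at -0.70 and Myh11 at -0.73 (all genes 7.52%), and in males alone 3, Mcam at -0.38, Vtn at -0.20 and Plvap at -0.43 (3.84%). The test of the sex difference itself called 0 of the 32 genes, with 4 at an unadjusted p under 0.05 in edgeR and 0 called by DESeq2. Over all 16020 genes tested, both called 0. Without the Q175 male with low Abhd1 14 genes were called. The share over all genes is not given for this fit, so the count is not set against it.

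In skin 10 of 20 endothelial genes, 3 of 4 contractile genes and 3 of 8 pericyte and mural genes were called, and 2 wild-type libraries stood apart. Markers of the growing hair follicle, chosen after the skin libraries were seen, summed to 21100 to 32300 CPM in wild-type males 1 and 2, against 9.37 to 13.9 CPM in the 8 Q175 libraries and 9.67 to 15.2 CPM in the other 4 wild-type libraries. Both males also held the highest contractile sums, 260 and 289 CPM, where the Q175 libraries lay between 63.5 and 99.4 CPM and the other 4 wild-type libraries between 128 and 179 CPM. Their endothelial sums were 163 CPM, within the Q175 range of 119 to 231 CPM, and 263 CPM, within the range of 247 to 431 CPM of the other 4 wild-type libraries. Both also held transcripts of an epididymis list, at 21.2 and 14.7 CPM, against at most 0.35 CPM in every other skin library. The comparison was therefore also made without them.

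**Figure D4:**
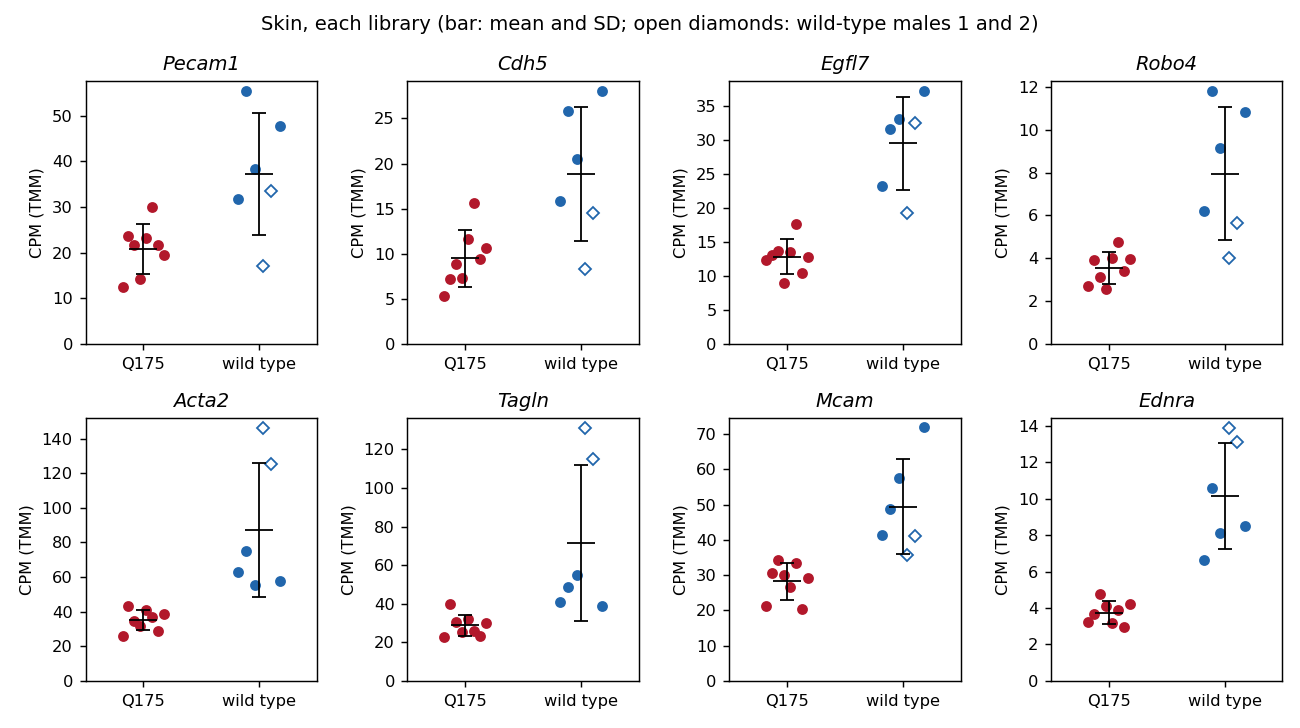
CPM of vessel genes in each skin library (points), Q175 left in red (n = 8) and wild type right in blue (n = 6), with wild-type males 1 and 2 as open diamonds and axes starting at 0. The diamonds are the top wild-type points for Acta2, Tagln and Ednra, while in Pecam1, Cdh5, Egfl7 and Robo4 the 4 filled wild-type points lie above the Q175 range.

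Of the 8 junction and surface proteins in skin 6 were called, all lower in Q175. Robo4 ran from 2.55 to 4.77 CPM (median 3.67) in Q175 and from 4.02 to 11.8 CPM (median 7.69) in wild type (-1.16 ± 0.238, adjusted p = 0.0215). Plvap ran from 11.2 to 30.8 CPM (median 16.6) in Q175 and from 24.6 to 47.5 CPM (median 35.6) in wild type (-0.95 ± 0.216, adjusted p = 0.0287). Cdh5 ran from 5.37 to 15.6 CPM (median 9.18) in Q175 and from 8.33 to 28 CPM (median 18.1) in wild type (-1.03 ± 0.265, adjusted p = 0.0394). In these genes wild-type male 1 was the lowest wild-type library and lay within the Q175 range. Pecam1 was called by a small margin (-0.85 ± 0.238, adjusted p = 0.0491), at 12.6 to 29.9 CPM (median 21.8) in Q175 and 17.2 to 55.4 CPM (median 35.9) in wild type. The adhesion protein Esam (-0.99) and the sialomucin Emcn (-0.82) complete the 6, and Cldn5 lay just outside (-0.94, adjusted p = 0.0506), at 3.36 to 7.33 CPM (median 4.66) in Q175 and 3.43 to 13.1 CPM (median 9.78) in wild type.

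Egfl7, a matrix protein secreted by endothelium, ran from 9.03 to 17.7 CPM (median 12.9) in Q175 skin and from 19.3 to 37.2 CPM (median 32) in wild-type skin (-1.2 ± 0.161, adjusted p = 0.00556), with no overlap. Flt1 ran from 5.32 to 11.5 CPM (median 8.3) in Q175 and from 7.99 to 23.8 CPM (median 14.5) in wild type (-0.9 ± 0.233, adjusted p = 0.04). The transcription factor Sox18 (-1.07) and the nitric oxide synthase Nos3 (-0.89) were called too, while Kdr (-0.76, adjusted p = 0.0607) and Tie1 (-0.85, adjusted p = 0.0535) were not. Among mural genes, Ednra ran from 2.96 to 4.79 CPM (median 3.78) in Q175 and from 6.63 to 13.9 CPM (median 9.56) in wild type (-1.42 ± 0.177, adjusted p = 0.00451), with no overlap. Mcam did not overlap either, at 20.3 to 34.3 CPM (median 29.7) in Q175 and 35.6 to 72.1 CPM (median 45.2) in wild type (-0.81 ± 0.165, adjusted p = 0.0212). Rgs5 ran from 22 to 39.9 CPM (median 33.3) in Q175 and from 28.6 to 71.3 CPM (median 52.1) in wild type (-0.66 ± 0.183, adjusted p = 0.0474). Pdgfrb (-0.63, adjusted p = 0.0871) was not called, and Notch3 (0.21) was the only gene above 0.

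The contractile genes of skin gave 3 calls of 4. Acta2 ran from 25.9 to 43.4 CPM (median 35.7) in Q175 and from 55.3 to 146 CPM (median 68.9) in wild type (-1.26 ± 0.199, adjusted p = 0.0107), and Cnn1 from 1.73 to 3.1 CPM (median 2.27) in Q175 and from 3.29 to 5.21 CPM (median 3.66) in wild type (-0.73 ± 0.162, adjusted p = 0.0263), both with no overlap. Tagln ran from 22.8 to 39.7 CPM (median 28.1) in Q175 and from 38.8 to 131 CPM (median 51.8) in wild type (-1.25 ± 0.261, adjusted p = 0.0231). The upper values of Acta2 and Tagln come from wild-type male 1. Without wild-type males 1 and 2, a comparison of 8 against 4 libraries chosen after the data were seen, Acta2 stood at -0.84 (adjusted p = 0.00665) and Tagln at -0.63 (adjusted p = 0.0232), smaller than with them. The endothelial genes stood further below 0 than with them, with Cdh5 at -1.43, Robo4 at -1.51 and Egfl7 at -1.34 (adjusted p = 0.00167). In that comparison 26 of 32 genes were called, all lower, against 6.75% of all genes tested, and Tek, Pdgfrb, Angpt2, Ecscr, Kcnj8 and Notch3 were not.

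Markers of other cells in skin, also chosen after the skin libraries were seen, did not lie at one level. Epidermal markers summed to 39000 to 50700 CPM in Q175, 30700 to 34900 CPM in the other 4 wild-type libraries and 16300 to 21900 CPM in wild-type males 1 and 2. Adipocyte markers summed to 645 to 1250 CPM in Q175, 1760 to 2200 CPM in the other 4 wild-type libraries and 778 to 1060 CPM in both males, and striated muscle markers to 2920 to 12100, 10100 to 16800 and 5290 to 5780 CPM in the same order. The part of these markers in the result was not tested. Of 10 peripheral capillary genes 6 were lower in Q175, with the smallest p for the fatty acid carrier Fabp4 (-1.03), the water channel Aqp1 (-1.02), Gpihbp1, which anchors lipoprotein lipase to capillaries (-0.99), and the phosphatase Ptprb (-0.93), and Fabp4 is also a gene of fat cells. Of 31 vascular signalling genes 7 were lower, with the smallest p for Hey1 (-1.22), Edn1, the ligand of Ednra (-1.17), Nrp2 (-1.48) and Heyl (-2.60). In 7 lymphatic and 7 fibroblast markers 0 were called, with medians of -0.51 and -0.31. The barrier-list gene Lef1 (-5.26) was called, which is also a gene of the growing hair follicle.

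The count of calls in skin depended on single libraries. It was 5 without wild-type male 2 and 22 without wild-type male 1. It was 6 without Q175 female 1 or Q175 male 3, 7 without Q175 male 1 or Q175 male 4 (the male with low Abhd1), 8 without Q175 female 4 or wild-type female 3, 9 without wild-type female 2 and 10 without Q175 female 3 or wild-type male 3. Acta2, Egfl7, Ednra and Mcam were called in each of these 14 fits. Shares over all genes are not given for these fits, so the counts are not set against them. Q175 female 4 had the highest Htt of the Q175 skin libraries, 6.01 FPKM against 3.11 to 4.07 FPKM in the others. This also lay above the wild-type range of 3.32 to 5.36 FPKM, while its Abhd1 of 1.79 FPKM lay among wild-type values. A fit added after the data were seen left out both Q175 libraries within the wild-type range of Abhd1, female 4 and male 4. In it 2 of 32 genes were called, Ednra (-1.47, adjusted p = 0.0322) and Egfl7 (-1.13, adjusted p = 0.038), against 0.116% of all genes. In that fit of 6 against 6 libraries 25 had an unadjusted p under 0.05, and the median was -0.76. With the replicate number as a block 0 genes were called. In females alone 5 were called, Egfl7, Cdh5, Robo4, Rgs5 and Esam (0.681% of all genes), with a median over the 32 genes of -0.99. In males alone, where 2 of the 3 wild-type libraries are males 1 and 2, 0 were called by edgeR, with 7 at an unadjusted p under 0.05, a lowest adjusted p of 0.0863 and a median of -0.49 (all genes 0.0% called).

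In gonadal adipose 8 of 10 called endothelial genes were higher in Q175. Tek ran from 66.7 to 92.7 CPM (median 76.5) in Q175 and from 38.9 to 74.2 CPM (median 55.6) in wild type (0.54 ± 0.114, adjusted p = 0.00403). Vwf ran from 78.3 to 204 CPM (median 138) in Q175 and from 42.6 to 175 CPM (median 54) in wild type (0.93 ± 0.261, adjusted p = 0.0167). Pecam1 ran from 195 to 281 CPM (median 224) in Q175 and from 150 to 244 CPM (median 191) in wild type (0.3 ± 0.0892, adjusted p = 0.0217). All these ranges overlapped. Cdh5 ran from 219 to 343 CPM (median 253) in Q175 and from 171 to 271 CPM (median 209) in wild type (0.27 ± 0.0902, adjusted p = 0.0314). Plvap ran from 40.1 to 75.4 CPM (median 57.8) in Q175 and from 30.9 to 66.7 CPM (median 43.8) in wild type (0.43 ± 0.133, adjusted p = 0.0245), and Flt1 averaged 147 ± 19.5 CPM in Q175 (SD, n = 8) and 118 ± 21.9 CPM in wild type (SD, n = 7; 0.33 ± 0.113, adjusted p = 0.0391). The Tgf-beta co-receptor Eng (0.3) and the Tek ligand Angpt2 (0.47) were higher too.

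Cldn5 and Egfl7 went the other way. Cldn5 ran from 25.6 to 71.9 CPM (median 57.2) in Q175 and from 54.8 to 140 CPM (median 69) in wild type (-0.69 ± 0.172, adjusted p = 0.00917), and Egfl7 from 81.4 to 121 CPM (median 102) in Q175 and from 104 to 246 CPM (median 124) in wild type (-0.47 ± 0.162, adjusted p = 0.0402). Among mural genes Pdgfrb was higher, at 90.3 to 120 CPM (median 108) in Q175 and 72.2 to 111 CPM (median 94.8) in wild type (0.28 ± 0.0894, adjusted p = 0.0276), as were Notch3 (0.47) and Abcc9 (0.37). Vtn was lower, at 17 to 31.1 CPM (median 23) in Q175 and 20.9 to 39.5 CPM (median 31.3) in wild type (-0.24 ± 0.0748, adjusted p = 0.0267). No contractile gene was called: Myh11 spread from 110 to 1570 CPM (median 374) in Q175 and from 84.5 to 391 CPM (median 135) in wild type (1.5 ± 0.617, adjusted p = 0.0747).

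The trend with gene length of a library's log2 CPM, each gene taken relative to its mean over the tissue, differed between the genotypes here. Its slope per doubling of length lay between -0.128 and 0.137 (median 0.0932, 7 of 8 above 0) in Q175 libraries and between -0.143 and 0.0417 (median -0.101, 6 of 7 below 0) in wild-type libraries. The L codes in the library names differed too, with L1 in wild-type libraries alone, all below 0. Of L8, Q175 female 1 stood at -0.128 and wild-type male 1 at -0.143. Of L2, wild-type male 3 stood at 0.0417 and Q175 libraries at 0.0784 to 0.137. Of L3, wild-type male 4 stood at -0.0518 and Q175 female 4 and male 4 at 0.105 and 0.116. Genotype and L code were not separated, and with a term for this code no gene was called. With the length trend removed from each library 10 genes were called, 8 higher and 2 lower. The share of all genes called in this fit is not given, so the count is not set against it. Of the 14 genes called above 7 were called here as well, Tek at 0.43, Vwf at 0.76, Plvap at 0.49, Pecam1 at 0.25, Eng at 0.3, Angpt2 at 0.41 and Cldn5 at -0.56. The other 7, all with the same sign as before, were not, namely Cdh5 (0.19, adjusted p = 0.104), Flt1 (0.13), Pdgfrb (0.13), Notch3 (0.23), Abcc9 (0.15), Egfl7 (-0.23) and Vtn (-0.14).

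Transcripts of epididymis, the duct that borders this fat pad in males, were present in Q175 males 2, 3 and 4 at 3030, 1710 and 761 summed CPM and in Q175 male 1 at 25.1, against at most 4.6 CPM in Q175 females and 1.68 CPM in wild-type libraries. The contractile sums of Q175 males 2 and 3, 3180 and 2050 CPM, were also the highest of this tissue, with 305 to 1630 CPM in the other Q175 libraries and 268 to 1460 CPM in wild type. Without Q175 males 2, 3 and 4, Tek was the only gene called (0.52, adjusted p = 0.0496; all genes 9.37%), and Pecam1 stood at 0.3 and Myh11 at 0.34. Without all 4 Q175 males 0 genes were called by edgeR, with 4 at an unadjusted p under 0.05 (all genes 0.105%). In females alone Tek was called (0.65; all genes 3.64%), and in males alone 5 genes (19.5%). The count was 8 without Q175 male 1 or Q175 male 3 (the male with low Abhd1), 9 without wild-type female 2 or wild-type male 2, and 8 to 15 over all single libraries left out. For these single leave-outs the shares over all genes are not given. Markers of other cells also differed: 6 of 7 fibroblast, 5 of 6 macrophage and 6 of 7 lymphatic endothelium genes were higher in Q175, for example Pdgfra (0.85), Itgam (1.21) and Flt4 (0.76). Of 10 peripheral capillary genes 3 were higher, among them Clec14a (0.49) and Ptprb (0.48), and 3 lower, among them Fabp4 (-0.68) and Aqp7 (-0.50). Adipocyte markers, a list added after the data were seen, summed to 14500 to 18600 CPM in the 4 Q175 males and 21800 to 24600 CPM in the 4 Q175 females, with 20600 to 25300 CPM over the wild-type libraries, so each Q175 male lay below every wild-type library. Summed fibroblast markers lay between 3040 and 4750 CPM in Q175 libraries and between 1830 and 3570 CPM in wild-type libraries. Of 32 vascular signalling genes 14 were called, 12 of them higher, with the smallest p for Nrp2 (0.52) and Slit3 (0.61), while Vegfa was lower (-0.39). The part of these markers in the result was not tested.

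In hypothalamus/thalamus Mcam ran from 17.9 to 27 CPM (median 21.6) in Q175 and from 26.6 to 45.7 CPM (median 32.1) in wild type (-0.6 ± 0.0925, adjusted p = 0.00349), with an overlap at the edge. With the replicate number as a block it was not called, and DESeq2 called Pecam1 and Erg beside it. Mcam, the only member called in this tissue, was also called lower in cerebellum and skin. In 1 Q175 library of hypothalamus/thalamus choroid plexus markers reached 4280 CPM, against a Q175 median of 42 and at most 92.6 CPM in wild type.

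In corpus callosum 0 of 32 genes were called by edgeR, and 0 by DESeq2, with 11 at an unadjusted p under 0.05 (all genes 19%, and 0.0544% called), although 31 of 32 log2 fold changes lay above 0, with a median of 0.28 against 0.001 over all genes. The contractile genes had the largest values, with Cnn1 at 2.78 ± 0.87, Tagln at 2.08 ± 0.643, Acta2 at 1.93 ± 0.599 (adjusted p = 0.209 for each) and Myh11 at 1.9 ± 0.685 (adjusted p = 0.219). The high values lay in 4 libraries. Summed contractile genes stood at 628 CPM in Q175 male 1, 344 in male 4, 343 in female 2 and 131 in female 3, against 34.4 to 42.1 CPM in the remaining Q175 libraries and 30.6 to 93.5 CPM in wild type. Q175 libraries thus fell both within and far above the wild-type range. Fibroblast markers were highest in Q175 male 1 and female 3 as well, at 604 and 447 CPM, against 142 to 197 CPM in wild type, and their part in the result was not tested.

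**Figure D5:**
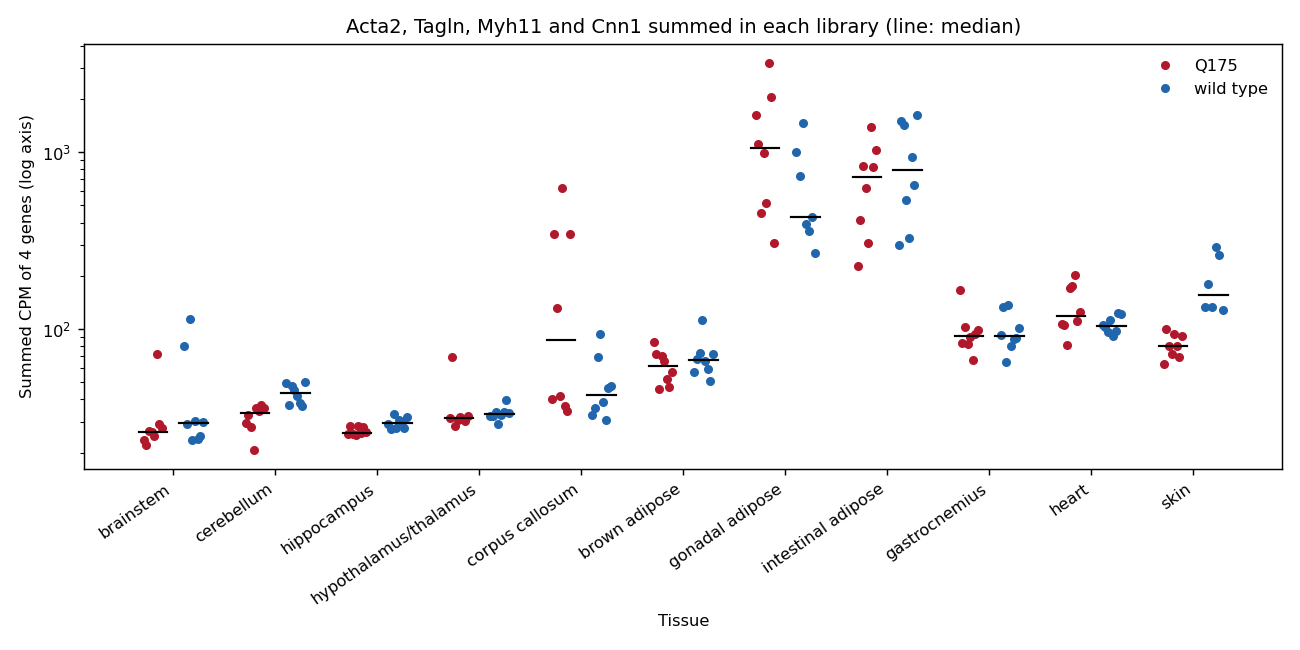
Summed CPM of Acta2, Tagln, Myh11 and Cnn1 in each library (points, log axis) of the 11 tissues, Q175 left in red and wild type right in blue, with the median as a line. In corpus callosum 4 Q175 libraries lie above the wild-type range of 30.6 to 93.5 CPM, in cerebellum and skin the Q175 points lie mostly or wholly below wild type, and in the white fat depots both genotypes spread widely.

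In the remaining 6 tissues 0 of 32 genes were called by edgeR. In brainstem 29 of 32 lay below 0 with a median of -0.15, 6 had an unadjusted p under 0.05 (all genes 14.2%, and 3.07% called) and the lowest adjusted p was 0.102, and DESeq2 called 2 genes. Intestinal adipose had 28 of 32 below 0 and a median of -0.35, with 2 at an unadjusted p under 0.05 (all genes 7.77%, and 0.0% called) and a lowest adjusted p of 0.598. The median was -0.05 in hippocampus, where 3 genes had an unadjusted p under 0.05 (all genes 21.7%, and 4.56% called). In brown adipose it was 0.07, with 1 such gene (17.2%, and 5.41% called). Gastrocnemius had a median of -0.03 and 1 such gene (6.3%, and 0.0213% called), and heart 0.01 and 3 such genes (7.82%, and 0.0549% called). DESeq2 called 0 of the 32 genes in these 5 tissues. In heart, with the highest Rgs5 of any tissue, the summed pericyte and mural genes lay between 997 and 1230 CPM in Q175 libraries and between 1010 and 1160 CPM in wild-type libraries. Without the Q175 male with low Abhd1 1 gene was called in brainstem and 0 in the other 5 tissues. Shares over all genes are not given for these fits.

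Whether the Q175 change differed between tissues was tested with an F-test over the 11 tissues in limma voom, and 24 of 32 genes were called, against 24.4% of all genes tested. Pecam1 (adjusted p = 2.72e-06), Egfl7 (6.42e-06) and Plvap (1.66e-05) led, whereas Mcam (adjusted p = 0.11), Vtn, Cnn1, Abcc9, Kcnj8, Notch3, Ecscr and Nos3 (adjusted p = 0.057) were not called. Without skin 7 genes were called, namely Pecam1, Plvap, Sox18, Cldn5, Myh11, Vwf and Tek (all genes 17.9%), and without skin and gonadal adipose only Sox18 (adjusted p = 0.0482; all genes 5.16%). A test of the genotype by sex interaction called 0 of the 32 genes in each of the 11 tissues with edgeR, with 0 to 9 at an unadjusted p under 0.05. Over all genes edgeR called 37 of 16049 in gonadal adipose and 0 in every other tissue. DESeq2 called 1 of the 32 genes, Mcam in gonadal adipose, where it called 532 of all 16049 genes tested.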

How the data were processed

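Polyadenylated RNA of flash-frozen tissue from 8 Q175 and 8 wild-type mice was sequenced on HiSeq instruments, per the labels' protocols. The submitters' processing notes name CASAVA 1.8.2. The aligner, counting program, genome build and library strand were not given in the sources used here. Reads of overlapping genes therefore cannot be told apart. The authors deposited estimated counts for every gene and library without scaling between libraries, and 31.4% of the values above 0 are not whole. The authors also deposited FPKM values, scaled by gene length and library total. Symbols were found for 36639 (95.0%) of 38561 gene identifiers. Counts were rounded and tested in each tissue with edgeR 4.0.16 (TMM, filterByExpr, robust quasi-likelihood F-test with sex and genotype, Benjamini-Hochberg over all genes tested) in R 4.3.3. Wild-type tissues and the difference between tissues were tested with limma 3.58.1 (voom over the libraries of all 11 tissues, animal as a block with an estimated correlation of 0.0252). Printed CPM were computed from the counts with TMM-scaled library totals. On simulated counts, 45 to 93 of 100 2-fold changes and 9 to 84 of 100 1.5-fold changes were recovered per tissue.

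The members and lists were chosen with earlier results of these data known. Values per group were given for members called in at least 2 tissues and for 8 defining markers, called members were named in order of p up to 10 per tissue, and up to 4 called genes of each other list. Lists of hair follicle, epidermis and adipocyte genes, and fits without named libraries, were added after the data were seen. The alternatives were DESeq2 1.42.0, RLE size factors, a fit without the filter, one without sex, a replicate block, removal of each library's trend of log2 CPM with gene length, a term for the L code in the library names, log2 FPKM in limma with pseudocounts of 1 and 0.1, and each library left out in turn. In the L code term, library names without a D code after the L part shared a single level, used for many libraries of the brain regions. Figures were drawn with matplotlib 3.10.9 in Python 3.11.15.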

Additional observations from a re-analysis of the deposited data

Results flagged for a closer look

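A library was set apart where the gap between it and its nearest neighbour was large for the range of its group (Dixon's test), which was applied to 66 groups of summed gene levels and marked 6, where chance marks about 1 in 20. The summed contractile genes were high in brainstem Q175 male 2, at 72 CPM, where the remaining 7 lay between 22.2 and 29.2 CPM. They were also high in hypothalamus/thalamus Q175 female 2, at 69.7 CPM against 28.3 to 32.3 CPM, in gastrocnemius Q175 female 1, at 166 CPM against 66.8 to 102 CPM, and in brown adipose wild-type female 4, at 113 CPM against 51 to 73.2 CPM. The summed pericyte and mural genes were low in cerebellum Q175 female 4, at 266 CPM against 279 to 290 CPM, and high in heart Q175 male 4, at 1230 CPM against 997 to 1100 CPM.

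The change of Q175 over wild type differed between tissues for 24 of the 32 genes in a moderated F-test (limma voom, Benjamini-Hochberg adjusted over all genes), against 24.4% of all genes tested. The smallest adjusted p values were 2.72e-06 for Pecam1, 6.42e-06 for Egfl7, 1.66e-05 for Plvap, 7.87e-05 for Esam and 0.000139 for Sox18. Pecam1 stood at -0.25 in cerebellum, -0.85 in skin and 0.3 in gonadal adipose on the log2 scale.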

How the results depend on the processing

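In cerebellum the 13 calls became 12 to 14 with 1 library left out and 3 in males alone, 12 of the 13 genes were called in every fit with a library left out, and 8 in each of the 9 settings. In skin the 16 calls became 5 to 22 with 1 library left out, 8 with the L code, 9 and 10 on log2 FPKM with pseudocounts of 1 and 0.1, 26 without wild-type males 1 and 2, 2 without Q175 female 4 and male 4, 5 in females and 0 in males. In gonadal adipose the 14 became 8 to 15 with 1 library left out, 9 with no filter, 4 with no sex term, 0 with the L code, 1 without Q175 males 2, 3 and 4, 0 without all Q175 males, 5 in males and 1 in females. DESeq2 called 3 genes in hypothalamus/thalamus, where edgeR called 1. In brainstem DESeq2 called 2 genes, and for the sex difference in gonadal adipose 1, where edgeR called 0 in both cases. Leaving out 1 library gave 1 to 2 calls in hypothalamus/thalamus and 0 to 1 in brainstem and hippocampus. Brown against gonadal adipose gave 19 calls on log2 FPKM with a pseudocount of 0.1, and corpus callosum against hippocampus 1 with RLE size factors and 1 on log2 FPKM with either pseudocount. The difference between tissues was called for 7 genes without skin and 1 without skin and gonadal adipose. The causes were not tested, and shares over all genes are not given for most of these refits. A set of 48 pairs of gene and tissue was refitted under the alternatives, namely the called pairs and the 4 contractile genes of corpus callosum. Other pairs not called did not enter, so calls gained there are not counted. Over these fits 457 stayed on the same side of the threshold, 215 lost the call and 0 changed direction. Of the single leave-outs only 2 per pair entered this tally, a highest and a lowest. Over all single leave-outs, 4 of the 16 genes called in skin and 7 of the 14 in gonadal adipose were called in every fit. With the length trend removed the counts were 14 in cerebellum, 18 in skin and 10 in gonadal adipose, and 7 genes lost their call, all in gonadal adipose. Replicate numbers are shared between genotypes, but the labels tie them to no litter or day, and same-numbered libraries deviated together (correlation over 0.1) in 0 of 8 pairs in brainstem to 6 of 8 in intestinal adipose. With the replicate block 11 genes were called in cerebellum, 11 in gonadal adipose, 0 in skin and 0 in hypothalamus/thalamus. Cnn1 in brain, at 4 to 42 counts in most libraries, is limited by depth.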
